A study of Mus musculus with 14 samples.

Results

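The interferon-stimulated genes described here are 49 genes chosen by name, each matched to its row of the raw count table through the GRCm38 annotation. All 49 were found among the 49315 genes of the table, and all 49 passed the filter on low counts, as did 15700 genes in all. The counts come from 14 cultures of primary microglia of C57BL/6 mice, 7 from TIMP2 knockout (KO) animals and 7 from wild-type (WT) animals. Each culture was a pool of the forebrains of 5 pups of postnatal day 6 to 7, males and females together, from which microglia were isolated with CD11b microbeads, plated and collected for poly(A) RNA sequencing. No interferon, virus or other agent is named in the labels, so the levels below are those of cultures with no stated stimulus. A culture, not a pup, is the replicate.

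Type I interferons are secreted proteins that bind the receptor IFNAR1/IFNAR2, which activates the kinases JAK1 and TYK2. These phosphorylate STAT proteins, among them STAT2, which joins IRF9 in the complex ISGF3, and this complex binds the interferon-stimulated response element (ISRE) in the promoters of its target genes. The targets include sensors of viral nucleic acid, transcription factors that amplify the response such as IRF7, and effectors that block viral entry, translation and replication. In microglia, the resident macrophages of the brain, these genes are expressed at a basal level and are known to rise in ageing, infection and neurodegeneration.

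Promoter windows are shown for 5 members that differ in the number of ISRE matches while their levels moved together across the cultures. RefSeq gave windows on GRCm38.p6 from 250 bases before to 50 bases after a transcript start for 38 of the 49 members (46 windows, since some genes have several starts). The ISRE core was searched as GAAANNGAAA on both strands, with overlapping matches counted, and is in capitals below. It was found in 24 of the 46 windows (52.2%), belonging to 22 members, against 3.44% of all 32851 windows of the table. In 10 members a window held at least 2 matches. The interferon-gamma activated site, searched as TTCNNNGAA, was found in windows of 9 members (19.6% of their windows, 8.30% of all windows). Isg15, which encodes a ubiquitin-like modifier, had 3 overlapping matches that start 78 to 66 bases before the transcript start (chr4:156200769-156201068, reverse strand). Ifit1, whose product binds viral RNA, had 2 matches, 104 and 85 bases before the start (chr19:34640639-34640938, forward strand). Gbp2, an interferon-inducible GTPase, had 1 match, 59 bases before the start (chr3:142620413-142620712, forward strand). The windows of Irf7 (chr7:141266375-141266674, reverse strand) and Ifi44 (chr3:151749861-151750160, reverse strand) had no match to these letters. Each sequence runs 5′ to 3′ on the strand of its gene.
Isg15: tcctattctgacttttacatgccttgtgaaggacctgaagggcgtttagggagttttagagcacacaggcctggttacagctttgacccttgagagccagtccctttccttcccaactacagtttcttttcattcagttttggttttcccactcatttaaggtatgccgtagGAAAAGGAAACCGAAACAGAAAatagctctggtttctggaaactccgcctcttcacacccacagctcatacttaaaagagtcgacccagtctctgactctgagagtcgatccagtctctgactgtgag
Ifit1: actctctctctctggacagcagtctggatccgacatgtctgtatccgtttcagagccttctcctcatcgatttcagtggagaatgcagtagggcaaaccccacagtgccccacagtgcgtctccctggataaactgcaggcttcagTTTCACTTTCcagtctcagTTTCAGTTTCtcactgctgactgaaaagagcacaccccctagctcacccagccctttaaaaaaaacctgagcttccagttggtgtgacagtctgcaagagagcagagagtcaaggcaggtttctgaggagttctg
Gbp2: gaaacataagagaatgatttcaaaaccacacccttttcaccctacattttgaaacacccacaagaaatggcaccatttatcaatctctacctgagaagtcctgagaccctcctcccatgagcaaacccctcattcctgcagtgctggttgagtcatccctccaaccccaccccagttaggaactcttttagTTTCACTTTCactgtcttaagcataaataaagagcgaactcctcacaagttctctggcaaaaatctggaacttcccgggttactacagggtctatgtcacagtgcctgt
Irf7: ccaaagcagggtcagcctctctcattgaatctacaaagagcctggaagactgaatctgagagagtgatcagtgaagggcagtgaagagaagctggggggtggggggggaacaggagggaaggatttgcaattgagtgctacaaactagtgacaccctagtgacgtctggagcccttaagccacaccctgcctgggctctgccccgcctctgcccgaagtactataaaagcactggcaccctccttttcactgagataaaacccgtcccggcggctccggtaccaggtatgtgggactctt
Ifi44: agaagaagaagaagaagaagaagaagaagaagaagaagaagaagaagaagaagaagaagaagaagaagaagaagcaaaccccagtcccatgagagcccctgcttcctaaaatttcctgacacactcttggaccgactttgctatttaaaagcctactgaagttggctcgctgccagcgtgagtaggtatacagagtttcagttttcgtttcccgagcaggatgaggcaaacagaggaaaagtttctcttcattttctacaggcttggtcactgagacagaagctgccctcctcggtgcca

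Between 38875344 and 48070236 reads per library were counted on genes. Levels are given as CPM, the counts divided by the library's total and brought to a common size, scaled between libraries with TMM factors between 0.979 and 1.01. Timp2, the deleted gene (chromosome 11, 118301069 to 118355740, reverse strand), lay between 120 and 129 CPM in the KO cultures and between 398 and 495 CPM in the WT cultures, with no overlap. All 15 genes of a list of microglia markers passed the filter, with a summed level between 12528 and 15826 CPM. Astrocyte markers summed to between 35.3 and 321 CPM and lymphocyte markers to between 0.789 and 6.36 CPM. A bulk library cannot tell fewer cells of a type from less RNA per cell. Each value counts all reads of a gene, whatever the transcript.

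Interferon-stimulated genes were expressed in every culture. The lowest count of any member in any library was 149 reads, and the members' means over the 14 cultures lay between 5.74 and 578 CPM with a median of 117 CPM. Since long genes collect more reads, members were ranked against each other by level per kilobase of exon. Ifitm3, which restricts viral entry in endosomes, was highest at 383 CPM per kb, followed by Bst2 (tetherin, which holds budding virus at the membrane) at 279 CPM per kb and Ifi27l2a at 184 CPM per kb. The lowest levels per kilobase were those of Ifi44 (1.63), Gbp3 (3.08) and Isg20 (3.09, an RNA exonuclease). The median of the members was 23.1 CPM per kb.

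The cultures of a genotype differed widely in these genes. In 46 of the 49 members the 3 cultures with the highest level were KO replicate 3, KO replicate 5 and WT replicate 5 (written KO3, KO5 and WT5). The highest of all was WT5 for 24 members, KO3 for 19 and KO5 for 6. At the other end, KO1 was lowest for 35 members, WT6 for 11 and WT4 for 3. Each member was set to mean 0 and SD 1 over the 14 cultures, and the mean over the members was then 1.61 in WT5, 1.53 in KO3 and 1.42 in KO5. It was -1.42 in KO1, -1.24 in WT6 and -0.86 in WT4, and between -0.60 and 0.32 in the remaining 8 cultures. Both genotypes thus held cultures at each end of the scale.

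**Figure D1:**
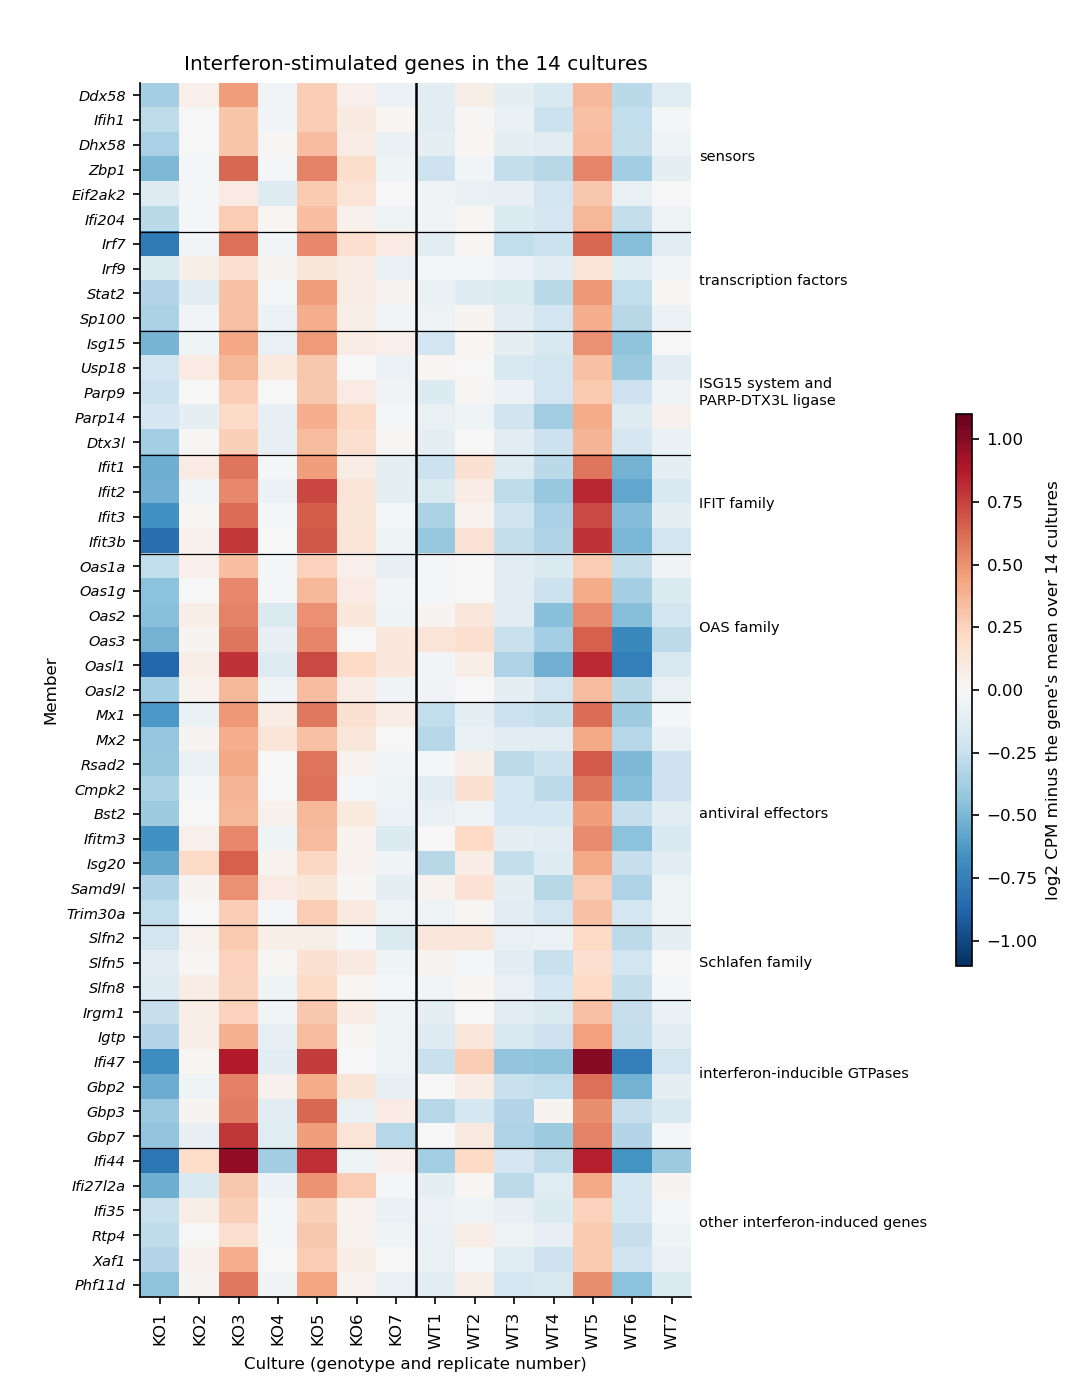
Each cell gives the log2 CPM of a member (rows, grouped by role) in a culture (columns, 7 KO and 7 WT) minus the gene's mean over the 14 cultures. The columns KO3, KO5 and WT5 are red through nearly the whole list and KO1, WT6 and WT4 are mostly blue, while neither genotype is of one colour.

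The size of this spread differed between members. The ratio of the highest to the lowest culture had a median of 1.80 over the members and of 1.42 over all tested genes, of which 36.0% had a larger ratio than the median member. Ratios are inflated in genes with few reads. Among the 9524 tested genes with a mean of at least 5.74 CPM, the level of the lowest member, the median ratio was 1.23 and 8.45% exceeded the median member. All 49 members lay above that median. The SD of log2 CPM within a genotype had a median of 0.256 in the members and of 0.0867 in those genes.

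Ifi44, a cytosolic protein with a GTP-binding motif, had the largest ratio at 3.39, followed by Ifi47, an immunity-related GTPase, at 3.36 and Oasl1, an OAS-like protein without synthase activity, at 3.21. Irf9, the DNA-binding part of ISGF3, had the smallest ratio at 1.26, and the Schlafen genes Slfn5 and Slfn8 followed at 1.41 and 1.42. By role, the 4 IFIT genes had the highest median ratio at 2.63, above the 6 GTPases (2.14), the 9 antiviral effectors (2.10) and the 6 OAS genes (1.99). The 3 Schlafen genes had the lowest at 1.42 and the 6 sensors the next lowest at 1.60. Without KO3, KO5 and WT5 the median ratio over the members was 1.43, and over all tested genes it was 1.35. The latter includes genes with few reads, whose ratios are inflated, and no value without them is given for these cultures. Because these 3 cultures were chosen as the highest of the members, a smaller ratio without them follows from the choice itself. Members with an ISRE match had a median ratio of 1.89 (22 members), and those in the promoter table without one had 1.92 (16 members). The corresponding ranges, 1.41 to 3.09 and 1.26 to 3.39, overlapped nearly throughout.

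The study set KO against WT cultures to find pathways that change in microglia without TIMP2, and the same comparison was made for the members. All 49 members had a higher fitted level in KO, against 50.8% of all tested genes, but no member passed the test. The log2 fold change, KO over WT, ran from 0.018 (Slfn2) to 0.27 (Oasl1) with a median of 0.12, beside a median of 0.0016 over all tested genes. In edgeR (quasi-likelihood test, Benjamini-Hochberg) the adjusted p of the members lay between 0.943 and 0.984. No member had an adjusted p under 0.05, as did 3 genes or 0.0191% of all tested genes (Timp2, Engase and Gm11748, all lower in KO). No member had an unadjusted p under 0.05 either, against 3.37% of all tested genes, and the lowest exact permutation p of a member was 0.164. DESeq2 also gave no member at either threshold, with a lowest adjusted p of 0.991. The levels of KO and WT cultures overlapped in all 49 members, whereas they did not overlap in 0.0828% of all tested genes.

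The shared direction is not 49 separate observations, since the members moved together across cultures, and its size depended on single cultures. Without WT5 the median log2 fold change rose to 0.23 and 16 members had an unadjusted p under 0.05 in edgeR. In that fit 995 of all 15833 tested genes did so, and no member had an adjusted p under 0.05. Without KO1 the median was 0.19, with 2 of the 49 members at the unadjusted level, beside 999 of all 15840 tested genes. Without KO3 it was 0.066, with Ifitm3, Slfn2 and Gbp7 below 0. Without KO5 it was 0.071, with Ifitm3 and Rtp4 below 0, and without WT6 it was 0.082, with Ifitm3 and Slfn2 below 0. Every 95% interval held 0. The lower ends ran from -0.40 (Ifi47) to -0.039 (Slfn5) and the upper ends from 0.19 (Irf9) to 0.86 (Ifi44), so that a log2 change of 1 lay outside the interval of all 49 members. The median standard error was 0.125 in the members and 0.0780 over all tested genes.

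**Figure D2:**
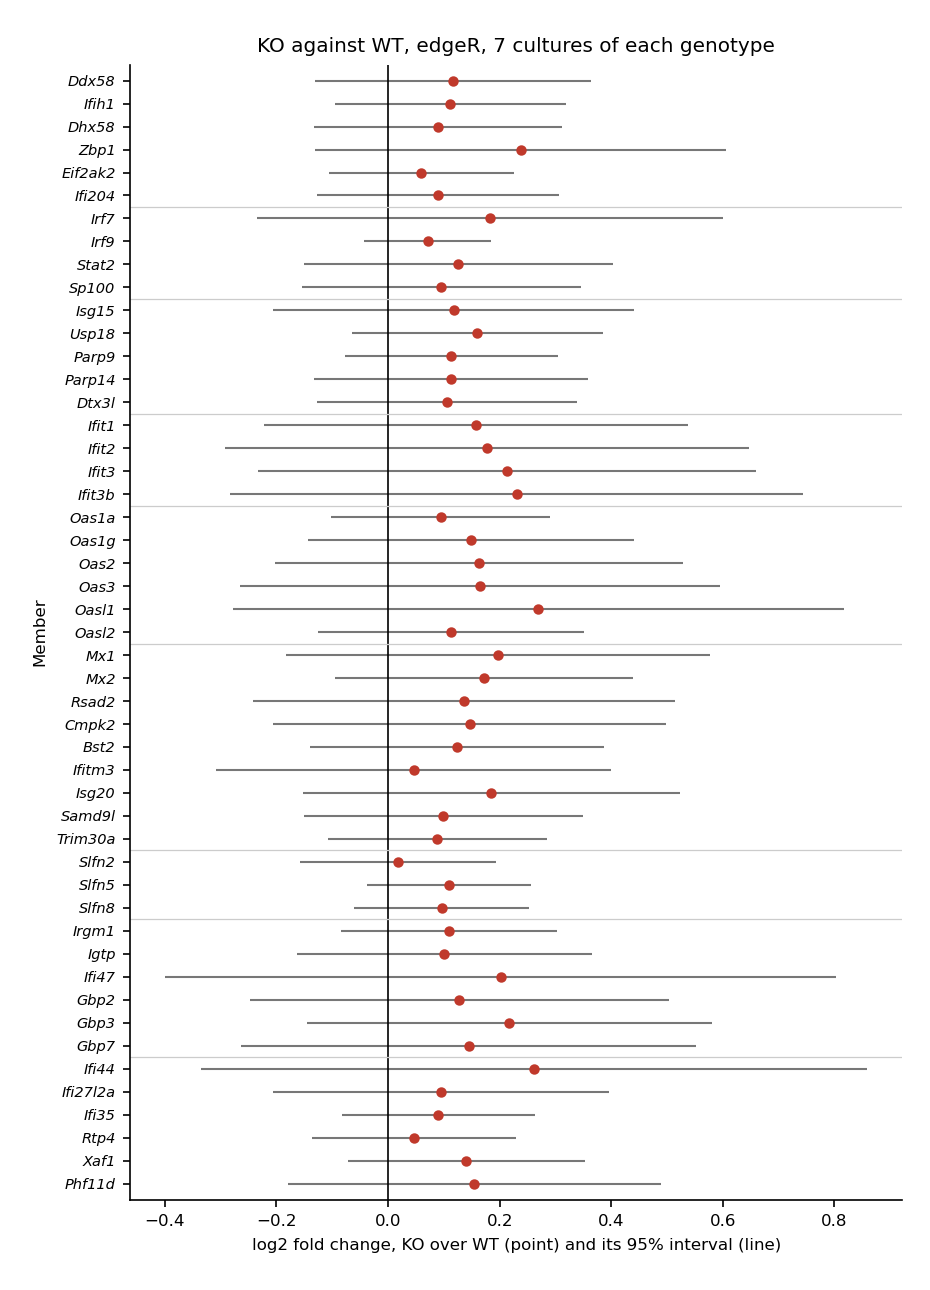
The log2 fold change of each member, KO over WT, is shown as a point and its 95% interval from edgeR as a line (7 cultures of each genotype, members in the order of their roles). All 49 points lie to the right of 0, between 0.018 and 0.27, and all 49 lines cross 0.

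Among the transcription factors, Irf7, which amplifies interferon induction, lay between 205 and 537 CPM in KO (median 375) and between 254 and 546 CPM in WT (median 323). The mean and SD over 7 cultures were 388 ± 111 CPM in KO against 341 ± 95.4 CPM in WT, and its log2 fold change was 0.18 (95% interval -0.23 to 0.60). KO1 was below every WT culture and WT5 was above every KO culture. Stat2, which carries the activation domain of ISGF3, lay between 251 and 431 CPM in KO (median 320) and between 255 and 437 CPM in WT (median 284), a log2 fold change of 0.13 (-0.15 to 0.40). Irf9 was the steadiest member, between 89.2 and 112 CPM in KO (median 103) and between 90.2 and 110 CPM in WT (median 96.9). Its log2 fold change was 0.071 (-0.043 to 0.19), and the cultures of both genotypes covered almost the same range. Sp100, a nuclear body protein, had a log2 fold change of 0.095.

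The sensors detect viral or misplaced nucleic acid. Zbp1, which binds Z-form nucleic acid, had the largest difference among them, with 46.8 to 103 CPM in KO (median 65.3) and 50.7 to 96.2 CPM in WT (median 56.3). Its log2 fold change was 0.24 (-0.13 to 0.61; two-sided exact permutation test over the 3432 divisions into 7 and 7, p = 0.246). KO3, WT5 and KO5 were far above the remaining 11 cultures, which reached 75.8 CPM. Ifih1 (MDA5, a sensor of long double-stranded RNA) had a log2 fold change of 0.11 (-0.095 to 0.32) and Ddx58 (RIG-I, a sensor of RNA 5′ ends) one of 0.12 (-0.13 to 0.36). Dhx58 (LGP2), Ifi204 (a sensor of DNA) and Eif2ak2 (the kinase PKR) had log2 fold changes of 0.090, 0.090 and 0.060.

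Isg15 and Usp18 form a tagging system in which USP18 removes ISG15 from proteins and also dampens signalling at the receptor. Isg15 lay between 35.7 and 70.4 CPM in KO (median 52.7) and between 37.4 and 72.0 CPM in WT (median 47.2), a log2 fold change of 0.12 (-0.21 to 0.44). Usp18 lay between 45.0 and 67.3 CPM in KO (median 55.5) and between 39.2 and 65.0 CPM in WT (median 47.8), a log2 fold change of 0.16 (-0.064 to 0.38; exact permutation p = 0.179). For both genes the 7 KO and 7 WT cultures were interleaved. Parp9, Parp14 and the ubiquitin ligase gene Dtx3l each had a log2 fold change of 0.11. Exons of Parp9 and Dtx3l overlap by 458 bases on opposite strands, and reads there cannot be assigned if strand was not used in counting.

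The IFIT genes, whose products bind viral RNA and block its translation, lie side by side on chromosome 19 between 34550694 and 34650009. Ifit3 lay between 86.4 and 217 CPM in KO (median 139) and between 98.5 and 227 CPM in WT (median 118), a log2 fold change of 0.21 (-0.23 to 0.66). Ifit1 lay between 41.0 and 89.9 CPM in KO (median 62.9) and between 41.6 and 89.5 CPM in WT (median 53.9), a log2 fold change of 0.16 (-0.22 to 0.54). The ranges of both genes were nearly the same in the 2 genotypes. Ifit2 and Ifit3b had log2 fold changes of 0.18 and 0.23. Ifit3 and Ifit3b are near-identical copies, so the division of reads between them is uncertain, and the same holds for Oas1a and Oas1g.

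The OAS genes make or resemble the synthases of 2-5A, the messenger that switches on RNase L, and all 6 lie on chromosome 5. Oasl1 had the largest fold change of all members, with 18.5 to 58.2 CPM in KO (median 36.4) and 19.9 to 59.2 CPM in WT (median 29.6). Its log2 fold change was 0.27 (-0.28 to 0.82), and the highest culture was WT5. Oasl2 lay between 251 and 419 CPM in KO (median 333) and between 265 and 414 CPM in WT (median 307), a log2 fold change of 0.11 (-0.12 to 0.35). Oas1a, Oas1g, Oas2 and Oas3 had values between 0.094 (Oas1a) and 0.16 (Oas3).

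Among the antiviral effectors, the dynamin-like GTPase gene Mx1 lay between 56.7 and 131 CPM in KO (median 92.8) and between 67.1 and 135 CPM in WT (median 74.7), a log2 fold change of 0.20 (-0.18 to 0.58). WT5 was highest and KO1 lowest of the 14 cultures. Mx2, which the annotation lists as a polymorphic pseudogene, lay between 15.9 and 28.2 CPM in KO (median 23.3) and between 17.2 and 28.6 CPM in WT (median 19.7), a log2 fold change of 0.17 (-0.095 to 0.44). Rsad2 (viperin, which makes a chain-terminating nucleotide) lay between 47.9 and 96.4 CPM in KO and between 45.4 and 102 CPM in WT, a log2 fold change of 0.14 (-0.24 to 0.52). Its neighbour Cmpk2, a nucleotide kinase gene, had a log2 fold change of 0.15.

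Bst2 lay between 189 and 320 CPM in KO (median 256) and between 208 and 341 CPM in WT (median 229), a log2 fold change of 0.12 (-0.14 to 0.39). Ifitm3 lay between 160 and 366 CPM in KO (median 261) and between 186 and 363 CPM in WT (median 235), a log2 fold change of 0.046 (-0.31 to 0.40). Its sign turned when KO3, KO5 or WT6 was left out. Isg20 lay between 3.80 and 8.86 CPM in KO and between 4.54 and 7.51 CPM in WT, a log2 fold change of 0.19 (-0.15 to 0.52). Samd9l and Trim30a had log2 fold changes of 0.099 and 0.088.

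**Figure D3:**
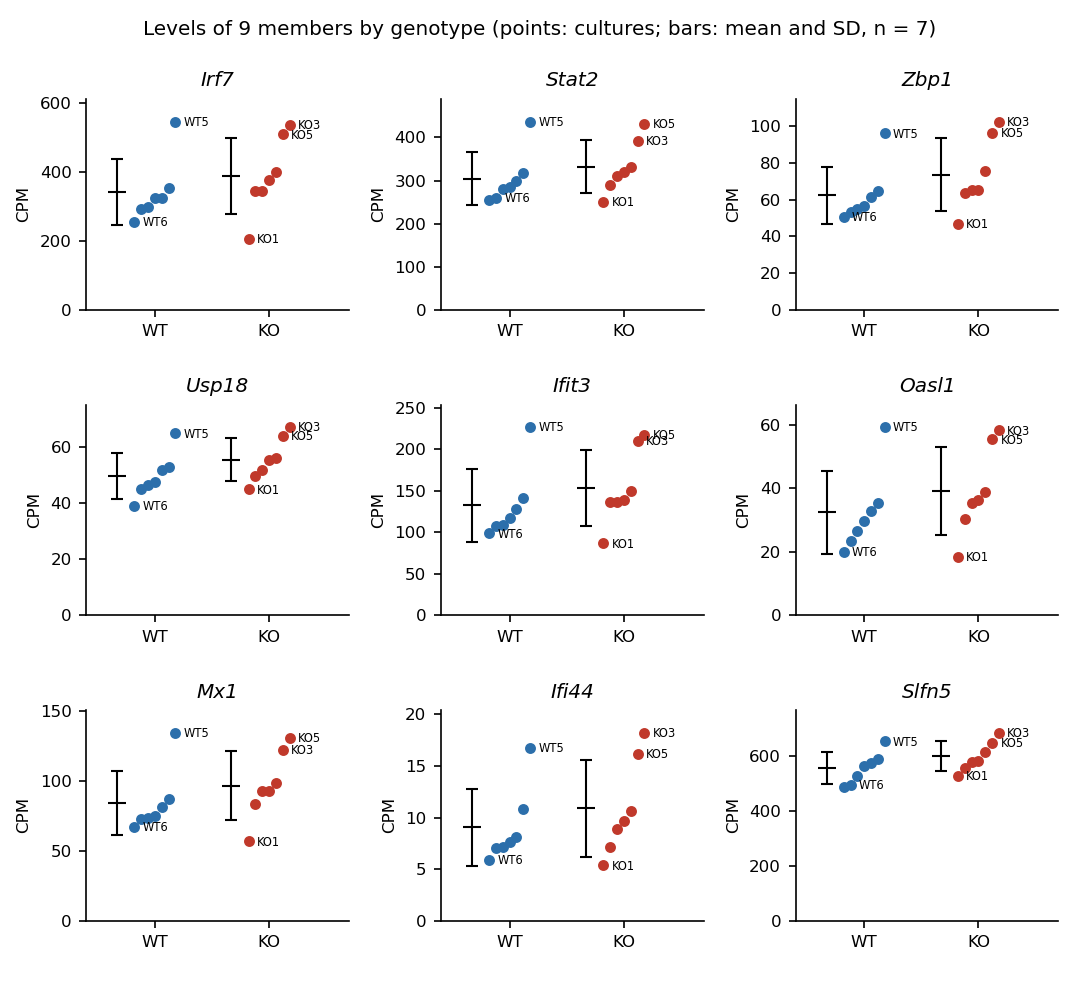
Levels of 9 members in CPM (vertical axes from 0) are shown for each of the 7 WT (blue) and 7 KO (red) cultures, with the mean and SD of each genotype as a bar. KO3, KO5 and WT5 are the 3 highest points in all 9 panels, and the remaining cultures of the 2 genotypes overlap.

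Schlafen proteins act in growth control and against viral translation, and their genes form a cluster on chromosome 11 between 82951349 and 83070678. Slfn5 had the smallest p of all members. It lay between 529 and 686 CPM in KO (median 581) and between 487 and 654 CPM in WT (median 566), with means of 600 ± 54.0 and 556 ± 57.9 CPM (SD, n = 7 each). The log2 fold change was 0.11 (-0.039 to 0.26; edgeR p = 0.136, adjusted p = 0.943; two-sided exact permutation p = 0.164), and the 2 genotypes overlapped through most of the range. Slfn8 had a log2 fold change of 0.096 (-0.061 to 0.25), with 105 to 137 CPM in KO and 96.9 to 136 CPM in WT. Slfn2 had the smallest difference of all members, 0.018 (-0.16 to 0.19).

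The immunity-related and guanylate-binding GTPases attack the vacuoles of intracellular pathogens and respond mainly to interferon-gamma. Igtp lay between 30.5 and 49.9 CPM in KO (median 38.5) and between 31.7 and 51.9 CPM in WT (median 34.6), a log2 fold change of 0.10 (-0.16 to 0.36). Gbp2 lay between 7.89 and 16.9 CPM in KO (median 11.9) and between 8.03 and 17.6 CPM in WT (median 10.7), a log2 fold change of 0.13 (-0.25 to 0.50). In both genes WT5 was the highest of the 14 cultures and the genotypes overlapped. Gbp3 lay between 7.38 and 15.1 CPM in KO and between 7.83 and 13.9 CPM in WT, a log2 fold change of 0.22 (-0.15 to 0.58). Ifi47 lay between 6.84 and 20.1 CPM in KO and between 6.55 and 22.1 CPM in WT, a log2 fold change of 0.20 (-0.40 to 0.80), the widest interval in the group. Irgm1 and Gbp7 had log2 fold changes of 0.11 and 0.14.

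Of the remaining members, Ifi44 lay between 5.36 and 18.2 CPM in KO (median 9.65) and between 5.87 and 16.8 CPM in WT (median 7.64), a log2 fold change of 0.26 (-0.33 to 0.86). Xaf1, whose product promotes apoptosis, lay between 57.3 and 94.2 CPM in KO (median 73.8) and between 61.1 and 87.3 CPM in WT (median 67.5), a log2 fold change of 0.14 (-0.071 to 0.35; exact permutation p = 0.234). Ifi27l2a lay between 57.6 and 118 CPM in KO and between 68.4 and 112 CPM in WT, a log2 fold change of 0.095 (-0.21 to 0.40). The lowest culture of all 3 genes was KO1, while the highest was KO3 or KO5. Ifi35, Rtp4 and Phf11d had log2 fold changes of 0.090, 0.046 and 0.15.

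Which members varied together was described by Pearson's r of log2 CPM over the 14 cultures after the mean of each genotype was subtracted. Over the 1176 pairs of members the median r was 0.94, and 94.1% of the pairs had an r above 0.8. Over all pairs of tested genes the median was -0.0001 and 0.879% of pairs were above 0.8. The highest r was 0.99, between the near-identical copies Ifit3 and Ifit3b, and the lowest was 0.48, between Eif2ak2 and Slfn2. With each member scaled to the same variance, the first principal component held 92.1% of the members' variance. Among all tested genes, centred but not scaled to the same variance, the first component held 46.4%, so these shares are not directly comparable. The r of that component with the mean profile of the members had a size of 0.77.

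Each member was also set against the mean of the other 48, which gave r between 0.822 and 0.995 with a median of 0.977. Oasl2, Sp100, Ifi204, Trim30a and Irgm1 followed the list most closely, and 43 members had an r above 0.9. Irf7 had an r of 0.98 and Isg15 of 0.97. The loosest members were Slfn2 (0.82), Eif2ak2 (0.83), Parp14 (0.86), Gbp3 (0.87), Samd9l (0.89) and Isg20 (0.90). Eif2ak2 and Parp14 stood high in KO6 and low in WT4, and Slfn2 was raised in WT1 and WT2 besides KO3 and WT5. By role, the median r within a group was highest among the IFIT genes (0.98) and OAS genes (0.97) and lowest among the Schlafen genes (0.84). The median r with the mean of the other members was 0.98 for members with an ISRE match. It was also 0.98 for those in the promoter table without one.

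Without KO3, KO5 and WT5 the pairs of members kept a median r of 0.85 over the other 11 cultures, with 63.1% above 0.8. The lowest r was then -0.029, between Slfn5 and Gbp3. These 3 cultures were chosen as the highest of the members, and leaving out such extremes by itself lowers r. Most pairs of members still had an r above 0.8 among the other 11, but no value over all tested genes is given beside it.

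**Figure D4:**
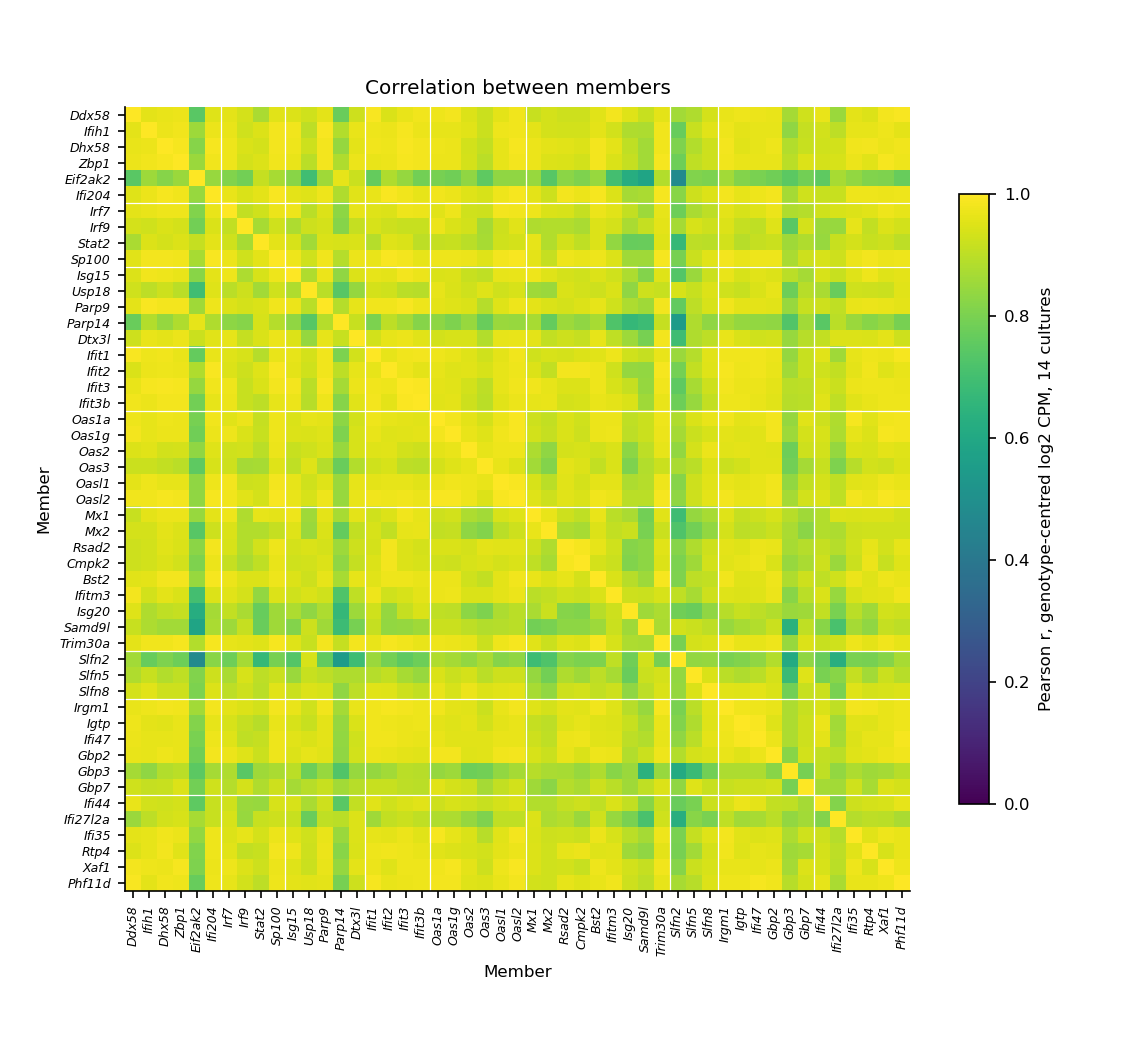
The colour gives Pearson's r between the log2 CPM of 2 members over the 14 cultures, each centred on the mean of its genotype, with white lines between roles. Most of the square is near 1 (median 0.94), and the rows of Eif2ak2, Parp14, Slfn2, Samd9l and Gbp3 are the darkest.

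For 9 pairs of partners r is given with a test by 100000 permutations within genotype, with Benjamini-Hochberg adjustment over the 10 pairs tested. Rsad2 and its neighbour Cmpk2 had an r of 0.98 (permutation p = 1e-05, the smallest these permutations can give). Their Spearman's rho was 0.95 (permutation p = 3e-05). Irgm1 and Igtp had an r of 0.98 (rho 0.98), Parp9 and Dtx3l of 0.96 (rho 0.90), and the sensors Ifih1 and Ddx58 of 0.96 (rho 0.89). Irf7 had an r of 0.95 with Ifit1 (rho 0.85) and of 0.97 with Gbp2 (rho 0.93). Ifit1 and Ifitm3 had an r of 0.97 (rho 0.93). The weakest pairs were Stat2 and Irf9, the parts of ISGF3, with an r of 0.87 (rho 0.77), and Isg15 and Usp18 with 0.88 (rho 0.67). All 9 pairs had permutation adjusted p of at most 0.0002 for r and 0.0141 for rho. The median r over all 1176 pairs of members was 0.94, so these p do not set partners apart from other members. Without the 2 cultures farthest from the median of the first gene r was between 0.79 and 0.96. Over the 11 cultures other than KO3, KO5 and WT5 it was between 0.66 (Isg15 and Usp18) and 0.95 (Ifit1 and Ifitm3).

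Outside the list, 227 of 15651 tested genes (1.45%) had an r above 0.9 with the mean standardised profile of the members. The 5 nearest were Ifi209, Phf11b, Ifi206, Samhd1 and Ifi211, with r between 0.987 and 0.995 over 14 cultures. Ifi209, Ifi206 and Ifi211 belong to the same family of DNA-binding proteins as Ifi204, and Samhd1 removes deoxynucleotides. Their log2 fold changes were 0.17 (Ifi209), 0.10 (Phf11b), 0.25 (Ifi206), 0.11 (Samhd1) and 0.12 (Ifi211), none past the test. A further 39 genes (0.249%) had an r below -0.9. The lowest was Igsf8 at -0.98, a gene chosen after its values were seen, which was highest in KO1 (97.5 CPM) and lowest in WT5 (68.4 CPM).

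The rest of the pathway was read from 4 lists. None of 20 interferon genes passed the filter, and their counts summed to 35 reads in all 14 libraries together, with at most 4 reads in any library. Ifnb1, the first interferon made by most cells, had 4 reads in the 14 libraries together, and 11 of the 20 genes had none. Interferon protein was not measured. Of the 11 receptor and JAK-STAT genes 10 were tested, 9 were higher in KO and none was called by edgeR. Jak1 was the only one of them with an unadjusted p under 0.05 (log2 fold change 0.055; edgeR p = 0.0353, adjusted p = 0.943; exact permutation p = 0.0192). The receptor gene Ifnar1 had 286 ± 13.2 CPM in KO against 275 ± 12.5 CPM in WT (SD over 7 cultures), and its r with the member profile was -0.14. Ifnar2, its partner, had 175 ± 14.9 CPM in KO against 165 ± 9.67 CPM in WT (SD over 7 cultures), with an r of 0.88.

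Of 22 genes of nucleic acid sensing and interferon induction all were tested, 20 were higher in KO and none was called or had an unadjusted p under 0.05. Ikbke, a kinase that activates IRF3 and IRF7, had the largest log2 fold change at 0.24, with 47.2 ± 14.4 CPM in KO against 40.1 ± 9.13 CPM in WT (SD over 7 cultures). Myd88, the adaptor of Toll-like receptors, followed the members closely (r = 0.96), whereas Irf3 (0.033) and Traf6 (-0.57) did not. Of 14 negative regulators 13 were tested, 11 were higher in KO and none was called or had an unadjusted p under 0.05. Their median log2 fold change was 0.048, and that of the receptor and sensing lists 0.055 and 0.038. These 3 medians lie above the 0.0016 of all tested genes and below the 0.12 of the members.

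Summed marker levels of 8 lists were set against Irf7, and those of border macrophages and monocytes rose with it across cultures. Of 11 markers of border macrophages and monocytes 8 were tested, 7 were higher in KO and none was called by edgeR or had an unadjusted p under 0.05. Their summed level lay between 513 and 835 CPM in KO and between 449 and 877 CPM in WT, of which the mannose receptor gene Mrc1 gave a mean of 436 CPM in KO and 440 CPM in WT. WT5, KO3 and KO5, with 877, 835 and 776 CPM, were the 3 highest cultures here as well. The r of the sum with Irf7 was 0.78 and rho was 0.81 (permutation p = 0.00012 and 0.00103, adjusted over 8 lists 0.00096 and 0.00824). Without the 2 cultures farthest from the median of Irf7 r was 0.87, and over the 11 cultures other than KO3, KO5 and WT5 it was 0.42. Lyve1, which marks border macrophages, had 25 reads in the 14 libraries together.

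Astrocyte markers moved the opposite way. Of 14 markers 12 were tested, all 12 were lower in KO, 1 with an unadjusted p under 0.05 and none called, and the summed level lay between 35.3 and 168 CPM in KO and between 41.0 and 321 CPM in WT. The cultures high in the members were low here, with 41.0 CPM in WT5, 58.7 in KO3 and 35.3 in KO5. The r with Irf7 was -0.64 and rho was -0.61 (permutation p = 0.012 and 0.0297, adjusted 0.0479 and 0.0791). It was -0.49 without the 2 farthest cultures and -0.34 over the other 11. For microglia markers r was 0.64 and rho 0.66 (adjusted permutation p = 0.0689 and 0.0633), and r was 0.17 without the 2 farthest cultures, KO1 and WT5, and 0.52 over the 11 cultures other than KO3, KO5 and WT5. The other 5 lists (neurons, oligodendrocyte lineage, endothelial and mural cells, lymphocytes, proliferation) had r between -0.54 and 0.038, with adjusted permutation p of at least 0.122. The part of cell composition in the interferon-stimulated genes was not tested.

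**Figure D5:**
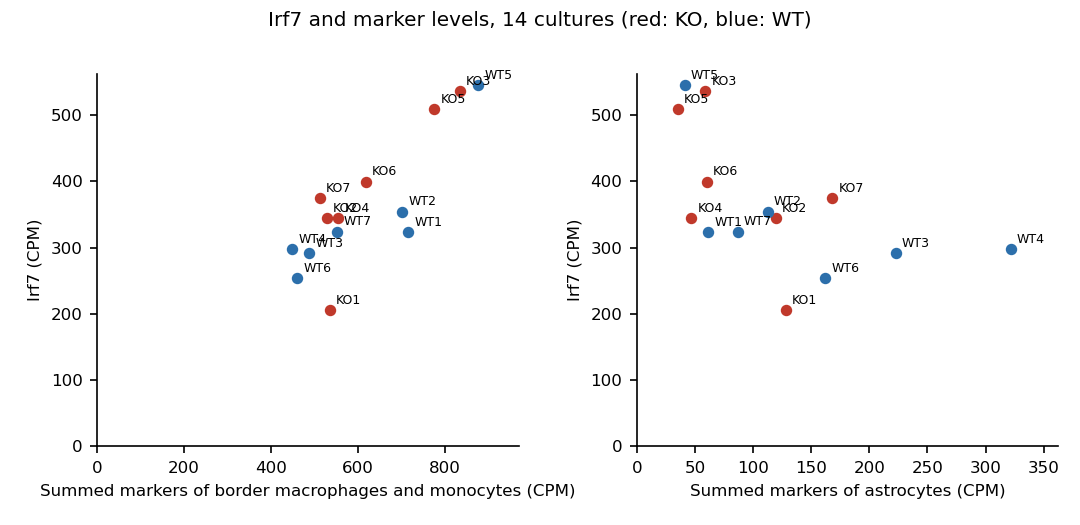
The level of Irf7 (CPM, vertical) is plotted against the summed level of border macrophage and monocyte markers (left) and of astrocyte markers (right), both in CPM, for the 7 KO (red) and 7 WT (blue) cultures. WT5, KO3 and KO5 lie at the top right on the left and at the top left on the right.

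Some counts carry a limit of position. Exons of 17 members overlap another annotated gene, among them Igtp (162 bases with Irgm2, same strand), Irf9 (123 bases with Rnf31) and Slfn5 (559 bases with an antisense gene). Of the 9 members on chromosome 11, Ifi35 and Dhx58 lie nearest to Timp2, 16.8 and 17.6 Mb away, and their log2 fold changes were both 0.090.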

How the data were processed

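The authors made libraries from poly(A) RNA of 14 microglia cultures, sequenced them as paired-end reads and deposited the raw counts of each Ensembl gene in the 14 libraries, not normalized. The submitters' processing notes name Trimmomatic 0.36, STAR 2.5.2b, featureCounts of Subread 1.5.2, DESeq2 and the build GRCm38. The strand setting and the annotation release are not given in the sources used here. Genotype and replicate number came from the sample titles, and 0 columns were left out. Gene names, positions and exon lengths were taken from GENCODE M21 (GRCm38), which matched 49056 of the 49315 genes.

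Low genes were removed by filterByExpr (10 counts, 15 in total), TMM gave the scaling, and edgeR 4.0.16 (R 4.3.3) compared KO with WT by its two-sided quasi-likelihood test. Benjamini-Hochberg adjustment ran over all 15700 tested genes, with a threshold of 0.05. DESeq2 1.42.0 was an alternative. The study modelled batch in DESeq2. The labels give no batch, so the model held genotype alone. Log2 CPM used a prior count of 1. Single levels were compared by exact permutation over all 3432 divisions into 7 and 7, of which the smallest possible p is 0.000583. Correlations were centred on genotype means and tested by 100000 permutations within genotype, with numpy 2.4.6 and scipy 1.17.1 in Python 3.11.15. The edgeR script was tested on simulated data.

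Members and lists were chosen with earlier results of these data known. Members with full values were 18 fixed genes of the main roles, the 5 with the smallest p, the 3 highest and the 3 lowest per kilobase, and the 3 with the largest and the 3 with the smallest range. The tenth gene pair tested is not reported here. The 5 genes most like the members' mean profile were named as well. Promoter windows were not in the table used here for Dhx58, Ifi204, Ifi27l2a, Mx1, Mx2, Oas2, Parp9, Parp14, Rtp4, Usp18 and Zbp1. Alternatives for the normalization, the filter, the tool, the replicate block and each library are described at the end. Intervals cover the spread between cultures at a depth of 38875344 to 48070236 counted reads per library.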

Additional observations from a re-analysis of the deposited data

Results flagged for a closer look

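In groups of 7 cultures, the log2 level of each of the 27 named members and their mean standardised level were checked for a highest or lowest culture whose gap to its nearest neighbour, as a share of the group's range, passed Dixon's 95% critical value. Chance gives this in about 1 of 20 groups, and 8 of the 56 groups met it. In all 8 it was WT replicate 5 that lay above the other 6 WT cultures. The gap took 0.713 of the range for Bst2, 0.675 for Mx2, 0.628 for Mx1, 0.619 for Zbp1, 0.590 for Stat2, 0.583 for Gbp3, 0.576 for Xaf1 and 0.573 for Irf9. These are not 8 separate signs, since the members varied together across the cultures. No KO group met the limit. There KO3 and KO5 were both high.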

How the results depend on the processing

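No member was called under any of the 20 alternatives of the test (upper-quartile or RLE factors, no filter, DESeq2, a replicate block in either tool, and each library left out in turn). The median log2 fold change of the members stayed above 0, between 0.066 and 0.23, and between 46 and 49 members were higher in KO. Leaving out libraries, Ifitm3 ran from -0.052 to 0.15, with -0.0085 without KO replicate 5 and -0.020 without WT replicate 6. No other of the 27 members given with full values changed sign. Over all genes edgeR called 3, DESeq2 14 and DESeq2 with the replicate block 27. The cause of these differences was not tested.

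Replicate numbers were not taken to pair the samples, since same-numbered KO and WT libraries had a correlation of deviations over all genes above 0.1 in 3 of 7 pairs, and 3 of 14 libraries correlated best with their own number. Over the members alone it was above 0.1 in 5 of 7 pairs, from -0.53 (replicate 3) to 0.92 (replicate 5, which was 0.74 over all genes). With the replicate block edgeR called 3 genes and no member (lowest adjusted p 0.792), and the median log2 fold change of the members was 0.12.

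The median r between members was 0.88 by Spearman and between 0.91 and 0.95 with 1 library left out. It was 0.89 without KO3 and WT5, the 2 farthest cultures, and 0.85 without KO3, KO5 and WT5, both chosen after the data were seen. The median range stayed between 1.72 and 1.80 with 1 library left out, and was 1.43 without those 3. Each member had at least 149 reads in each library, and the effect of depth was not tested. Cell composition and batch were not modelled.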
